A study of Mus musculus with 9 samples.

Results

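The receptors through which bone morphogenetic proteins (BMPs), activins and transforming growth factor β (TGF-β) act were followed in cultured adult mouse neural stem cells (NSCs). The set held 10 genes of the 55704 in the deposited expression table: the type I receptors Bmpr1a, Bmpr1b, Acvr1, Acvr1b and Tgfbr1, the type II receptors Bmpr2, Acvr2a, Acvr2b and Tgfbr2, and the type III receptor Tgfbr3. They were chosen by name and matched by Ensembl identifier, and all 10 passed the minimum level for testing, a mean of 0.1 FPKM (fragments mapped to the exons of a gene, divided by their length and by the depth of the library), as did 20207 genes in all. The NSCs came from the subventricular zone of C57BL/6 mice aged 8 to 9 weeks, with 2 female and 2 male mice pooled per isolation and at least 3 passages before use. All libraries came from adherent cultures of these cells, 1000000 cells per sample, and 3 replicates were labelled in each of 3 groups. The sample titles do not state whether the replicates came from separate isolations. bFGF/EGF-treated NSCs, the proliferating starting culture, had basic fibroblast growth factor and epidermal growth factor at 20 ng/mL each and were taken at day 0. bFGF/BMP4-treated NSCs had bFGF and BMP4 at 20 ng/mL each for 6 days. BMP4-treated NSCs had BMP4 alone at 20 ng/mL for 6 days. The day of sampling differed between the starting culture and both BMP4 groups, and EGF was present only in the starting culture. Time in culture, the loss of EGF and the addition of BMP4 thus cannot be told apart in comparisons with bFGF/EGF. With BMP4 alone, bFGF was withdrawn as well.

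Ligands of this family are dimers that bring together type II and type I receptors, both of which are serine/threonine kinases. The type II receptor phosphorylates the type I receptor, which in turn phosphorylates SMAD proteins that move to the nucleus. The BMP type I receptors act mainly on SMAD1, SMAD5 and SMAD9, and the activin and TGF-β type I receptors on SMAD2 and SMAD3. In adult NSC cultures, BMP4 given together with bFGF is widely used to bring cells into a quiescent state.

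Each library held between 15892854 and 17419822 fragments on genes, and the 10 receptors had between 17 fragments (Acvr2b and Tgfbr3) and 13032 fragments (Bmpr1a) in a library. All 12 NSC markers were above 0 in every group. Their summed level per library was 1747 to 1864 FPKM with bFGF/EGF, 858 to 948 FPKM with bFGF/BMP4 and 3778 to 4886 FPKM with BMP4. Without Gfap, which astrocytes also express and which went from 0.0926 FPKM with bFGF/EGF to 19.4 FPKM with bFGF/BMP4 and 2566 FPKM with BMP4, the remaining 11 summed to 1746 to 1864, 838 to 927 and 1597 to 2073 FPKM. At least 2-fold and with a limma adjusted p of at most 0.05, 5 of the 12 NSC markers were higher and 5 lower with bFGF/BMP4 than with bFGF/EGF. With BMP4, 5 were higher and 2 lower than with bFGF/EGF. Nes, at 151, 3.55 and 15.8 FPKM, and Egfr, at 42.7, 6.32 and 6.34 FPKM, were lower in both BMP4 groups. Id4, at 0.936, 53.2 and 132 FPKM, was among those higher in both. The 8 astrocyte markers summed to 233 to 315 FPKM with bFGF/EGF, 1229 to 1449 FPKM with bFGF/BMP4 and 1993 to 2149 FPKM with BMP4. By that rule, 6 of them were higher and 1, Aldh1l1, was lower in each BMP4 group than with bFGF/EGF. Aldh1l1 stood at 135, 24.2 and 58.1 FPKM, and Slc1a2 at 12.6, 175 and 65.5 FPKM. The 8 oligodendrocyte lineage markers summed to 1568 to 2277, 1353 to 1825 and 272 to 467 FPKM, most of it Olig1 and Olig2, with Sox10 listed at 0 in both BMP4 groups. The 8 neuron and neuroblast markers summed to 79.4 to 95.8, 48.2 to 53.9 and 144 to 216 FPKM, and without Tubb3 the remaining 7 summed to 54.4 to 78.1, 31.1 to 36.4 and 37.4 to 49.3 FPKM. Gfap and Tubb3 were set apart, and the markers given singly were chosen, after their values were seen. The 7 ependymal markers summed to at most 70.8 FPKM in a library, the 8 mural and fibroblast markers to at most 15.0 FPKM, the 8 endothelial markers to at most 4.30 FPKM, with Cldn5 listed at 0 throughout, and the 8 microglial markers to at most 1.75 FPKM, with Itgam and C1qa listed at 0 throughout. The part of these shifts between cell states in the receptor levels was not tested, and in such bulk samples fewer cells of a type and less RNA per cell cannot be told apart.

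To show the DNA next to the starts of the 3 receptors with the widest range of group means (Bmpr1a, Acvr2b and Tgfbr1), of Bmpr2, the type II receptor that rose, and of Acvr1b, which passed no test, the 250 bases upstream of the most frequent annotated transcript start were read from the GRCm39 genome with GENCODE vM39. The window of Bmpr1a lay at chr14:34224758-34225007 on the minus strand, that of Bmpr2 at chr1:59802294-59802543, that of Tgfbr1 at chr4:47352884-47353133, that of Acvr2b at chr9:119230853-119231102 and that of Acvr1b at chr15:101071671-101071920, all but the first on the plus strand. They are written 5′ to 3′ with the SMAD1 and SMAD5 recognition motif GGCGCC in capitals, which the window of Acvr2b does not hold.

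Bmpr1a: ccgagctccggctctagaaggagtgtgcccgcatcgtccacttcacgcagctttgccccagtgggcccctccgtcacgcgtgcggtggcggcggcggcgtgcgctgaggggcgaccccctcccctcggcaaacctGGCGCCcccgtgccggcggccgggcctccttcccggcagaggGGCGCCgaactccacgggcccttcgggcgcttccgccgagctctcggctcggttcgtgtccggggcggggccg

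Bmpr2: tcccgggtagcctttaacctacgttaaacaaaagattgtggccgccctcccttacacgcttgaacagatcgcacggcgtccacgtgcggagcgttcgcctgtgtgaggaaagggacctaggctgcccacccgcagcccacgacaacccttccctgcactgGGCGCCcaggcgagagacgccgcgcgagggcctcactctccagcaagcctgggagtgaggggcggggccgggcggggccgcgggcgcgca

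Tgfbr1: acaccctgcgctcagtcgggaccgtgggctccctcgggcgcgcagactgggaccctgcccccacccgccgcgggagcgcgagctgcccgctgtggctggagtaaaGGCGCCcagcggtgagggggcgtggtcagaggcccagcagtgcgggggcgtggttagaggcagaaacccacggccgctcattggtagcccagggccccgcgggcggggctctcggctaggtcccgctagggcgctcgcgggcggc

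Acvr2b: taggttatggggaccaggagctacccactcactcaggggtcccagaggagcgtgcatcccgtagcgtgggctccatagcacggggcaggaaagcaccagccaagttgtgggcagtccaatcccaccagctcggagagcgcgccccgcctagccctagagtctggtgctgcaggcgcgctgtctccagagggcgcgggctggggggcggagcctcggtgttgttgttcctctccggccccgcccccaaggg

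Acvr1b: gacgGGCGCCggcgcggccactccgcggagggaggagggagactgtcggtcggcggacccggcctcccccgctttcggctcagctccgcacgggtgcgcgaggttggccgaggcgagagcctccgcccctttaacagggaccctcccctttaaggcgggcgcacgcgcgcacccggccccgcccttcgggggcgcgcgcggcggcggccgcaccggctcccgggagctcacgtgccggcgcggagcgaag

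The letters GGCGCC, which read the same on both strands, stood in the windows of 5 of the 10 receptors (Bmpr1a, Bmpr2, Acvr1, Acvr1b and Tgfbr1), and in 9.1% of the 21594 windows of the same length at protein-coding genes. They were thus present at receptors that rose, at one that fell and at 2 that passed no test with all libraries. The window of Bmpr1a held them 2 times. CAGAC, the motif bound by SMAD3 and SMAD4, was searched on both strands and was found at 5 receptors (Acvr1, Acvr2a, Acvr2b, Tgfbr1 and Tgfbr2) and in 41.4% of all windows. A CAGAC can share a base with a preceding GGCGCC. The GC content of the receptor windows ran from 41.6% to 78.4%, with a median of 66.4% against 52.8% over all windows, and its part in the motif counts was not tested.

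Bmpr1a was the most abundant receptor mRNA in every group, and it took a growing share of the set in the order bFGF/EGF, bFGF/BMP4, BMP4. The summed level of the 10 receptors was 80.7 FPKM ± 10.0 (SD, n = 3) with bFGF/EGF, 180.2 FPKM ± 17.8 with bFGF/BMP4 and 197 FPKM ± 4.56 with BMP4. Of that sum, Bmpr1a made up 28.5% ± 3.20, 53.7% ± 0.446 and 63.0% ± 2.49. Among type I receptors alone its share was 40.7% ± 4.52, 70.9% ± 1.10 and 74.4% ± 1.67. In the starting culture the ranges of Bmpr1a and of Bmpr2, the next in order, did not overlap, whereas each of Bmpr2, Bmpr1b, Tgfbr1, Acvr1b, Acvr2a and Acvr1 overlapped its neighbour in the order of means, from 11.9 down to 7.31 FPKM. Acvr2b and Tgfbr2 overlapped each other at 2.25 and 1.70 FPKM, and Tgfbr3 was lowest at 0.368 FPKM. With bFGF/BMP4 the order was Bmpr1a, Bmpr2, Bmpr1b, Acvr1, Acvr1b, Acvr2a, Tgfbr1, Acvr2b, Tgfbr2 and Tgfbr3, and only Acvr1 with Acvr1b and Acvr2b with Tgfbr2 overlapped as neighbours. With BMP4, Bmpr1b and Bmpr2 overlapped at 23.7 and 23.3 FPKM, Acvr1b overlapped Acvr1, Tgfbr2 overlapped Acvr2b and Acvr2b overlapped Tgfbr3, and the remaining neighbours did not overlap.

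**Figure D1:**
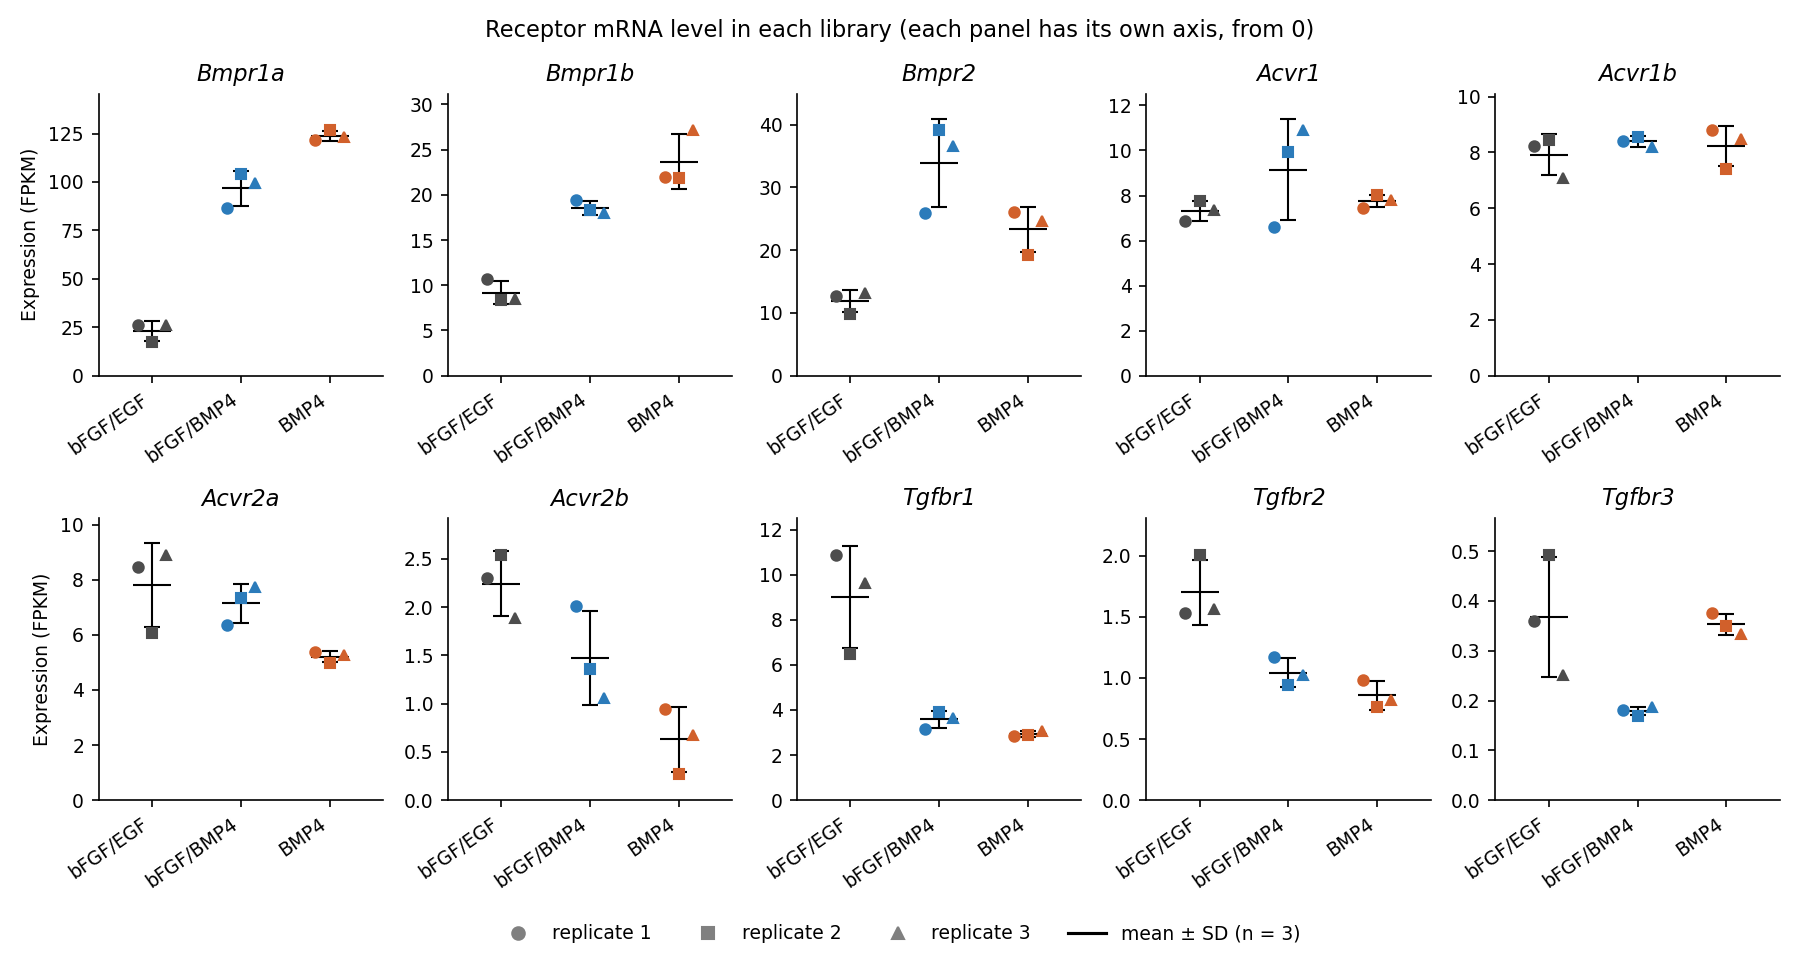
Expression of each of the 10 receptors in FPKM (y axis, from 0, scaled per panel) in the 9 libraries, by group (x axis), with 1 point per library and the group mean ± SD (n = 3) as bars. The 6 libraries with BMP4 lie above the bFGF/EGF libraries for Bmpr1a, Bmpr1b and Bmpr2 and below them for Tgfbr1 and Tgfbr2, Acvr1b stays between 7.07 and 8.80 FPKM in all libraries, and Acvr2b is lowest with BMP4 alone.

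Across the receptors, 3 rose at least 2-fold and 1 fell at least 2-fold in bFGF/BMP4-treated NSCs against bFGF/EGF-treated NSCs (adjusted p of at most 0.05 in limma over all genes), beside 16.5% of all genes tested that rose and 14.1% that fell, 30.6% in all. In BMP4-treated against bFGF/EGF-treated NSCs, 2 rose and 2 fell at least 2-fold, beside 21.3% and 15.4% of all genes, 36.6% in all. Between BMP4-treated and bFGF/BMP4-treated NSCs, 1 receptor fell, beside 5.14% of all genes that fell and 8.41% that rose, 13.5% in all. Without the 2-fold minimum, 5, 7 and 1 receptors passed in the 3 comparisons, beside 48.6%, 54.9% and 21.1% of all genes. The groups did not overlap for 6, 7 and 6 receptors, beside 57.7%, 60.4% and 38.7% of all genes. The share of receptors called was thus near that of genes in general in each comparison. The median log2 fold change of the receptors was -0.01, 0.02 and -0.23, and that of all genes tested was 0.06, 0.10 and 0.00. These 3 comparisons share their libraries pairwise and are not independent of each other. Fold changes are on the scale of log2(FPKM + 0.1), which understates the change of genes with low levels, and the adjusted p-values measure the spread between the labelled replicates.

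The BMP type I receptors were led by Bmpr1a (ALK3; chr14:34132687-34225379, minus strand), a widely expressed receptor for BMP2 and BMP4. Its level was 26.1, 17.3 and 26.3 FPKM in the 3 bFGF/EGF libraries, 86.7, 104 and 99.6 FPKM with bFGF/BMP4, and 122, 127 and 123 FPKM with BMP4. The groups did not overlap in any pair, and replicate 2 was the low library of the starting culture. Bmpr1a rose by 2.08 on the log2 scale (4.22-fold; SE 0.16, limma adjusted p = 6.14e-06) with bFGF/BMP4. With BMP4 the rise over bFGF/EGF was 2.44 (5.41-fold; SE 0.16, limma adjusted p = 1.49e-06). The further difference between both BMP4 groups, 0.36 with a 95% interval from -0.01 to 0.73, did not pass (limma adjusted p = 0.163), although every BMP4 library was above every bFGF/BMP4 library. It passed in the fit without bFGF/EGF replicate 2 (limma adjusted p = 0.0336). The non-coding gene Gm17110 overlaps Bmpr1a on the opposite strand over 735 exonic bases and had at most 20 fragments in a library, against at least 1735 for Bmpr1a.

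Bmpr1b (ALK6; chr3:141542897-141875323, minus strand), the closest relative of Bmpr1a, moved the same way by a smaller amount. It stood at 10.7, 8.35 and 8.50 FPKM with bFGF/EGF, 19.5, 18.3 and 18.0 FPKM with bFGF/BMP4, and 22.0, 21.9 and 27.1 FPKM with BMP4. No group overlapped another, and BMP4 replicate 3 was the highest library. The rise was 1.02 (2.03-fold; SE 0.13, limma adjusted p = 0.000146) with bFGF/BMP4 and 1.36 (2.57-fold; SE 0.13, limma adjusted p = 1.54e-05) with BMP4. The first of these sat at the 2-fold line and lay between 0.91 and 1.13 over the alternative settings, falling below 2-fold in 6 of 17, among them leaving out bFGF/EGF replicate 2 (0.96), bFGF/EGF replicate 3 (0.97) or bFGF/BMP4 replicate 1 (0.99). The difference between BMP4 and bFGF/BMP4, 0.34 (95% interval 0.04 to 0.64), did not pass (limma adjusted p = 0.104).

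Acvr1 (ALK2; chr2:58278656-58457770, minus strand), the third BMP type I receptor, passed no test. The bFGF/EGF libraries lay between 6.85 and 7.74 FPKM and the BMP4 libraries between 7.46 and 8.00 FPKM. With bFGF/BMP4 the values were 6.61, 9.92 and 10.9 FPKM, a spread wider than the other groups, and replicate 1 fell below every other library. The log2 fold change was 0.29 (95% interval -0.10 to 0.68) with bFGF/BMP4 and 0.08 (-0.30 to 0.47) with BMP4, both against bFGF/EGF. Without bFGF/BMP4 replicate 1, Acvr1 passed with bFGF/BMP4 against bFGF/EGF, at 0.50 (limma adjusted p = 0.00835), and in BMP4 against bFGF/BMP4, at -0.42 (limma adjusted p = 0.0381). Upp2, which shares 259 exonic bases with Acvr1 on the opposite strand, stood at 0.125, 0.758 and 0.856 FPKM in the 3 groups, and reads of the opposite strands cannot be told apart where the counting was not stated to use strand.

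Of the 2 activin and TGF-β type I receptors, 1 fell and 1 passed no test. Tgfbr1 (ALK5; chr4:47353134-47414931, plus strand), the main TGF-β type I receptor, fell in both BMP4 groups. Its level was 10.9, 6.49 and 9.64 FPKM with bFGF/EGF, 3.17, 3.91 and 3.66 FPKM with bFGF/BMP4, and 2.85, 2.87 and 3.08 FPKM with BMP4. All 6 libraries with BMP4 lay below the lowest bFGF/EGF library, which was replicate 2. The log2 fold change was -1.28 (2.43-fold lower; SE 0.19, limma adjusted p = 0.000341) with bFGF/BMP4 and -1.55 (2.94-fold lower; SE 0.19, limma adjusted p = 7.17e-05) with BMP4. Between both BMP4 groups it was -0.28 (95% interval -0.70 to 0.15; limma adjusted p = 0.371).

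Acvr1b (ALK4; chr15:101071921-101111565, plus strand), the activin type I receptor, was the most even member. Over the 9 libraries it ranged from 7.07 to 8.80 FPKM and every pair of groups overlapped. Its log2 fold change was 0.09 (95% interval -0.18 to 0.35) with bFGF/BMP4, 0.06 (-0.21 to 0.32) with BMP4 and -0.03 (-0.30 to 0.23) between them, and a change of 2-fold lay outside each interval.

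Among the type II receptors, Bmpr2 (chr1:59802544-59918173, plus strand), which binds BMPs and pairs with the BMP type I receptors, was the only one that rose. It stood at 12.7, 9.83 and 13.2 FPKM with bFGF/EGF, 25.9, 39.1 and 36.6 FPKM with bFGF/BMP4, and 26.1, 19.2 and 24.6 FPKM with BMP4. Both BMP4 groups lay above the starting culture and overlapped each other through bFGF/BMP4 replicate 1. The log2 fold change was 1.49 (2.81-fold; SE 0.19, limma adjusted p = 0.000123) with bFGF/BMP4. With BMP4 it was 0.96 (1.95-fold; SE 0.19, limma adjusted p = 0.0016), just under the 2-fold minimum, which it passed without bFGF/EGF replicate 1 (1.02), bFGF/EGF replicate 3 (1.04) or BMP4 replicate 2 (1.10). Bmpr2 thus had its highest mean with bFGF/BMP4, whereas Bmpr1a had its highest with BMP4. The difference between BMP4 and bFGF/BMP4, -0.53 (95% interval -0.95 to -0.11), did not pass (limma adjusted p = 0.0783), and without bFGF/BMP4 replicate 1 it was -0.71 and passed (limma adjusted p = 0.0245).

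Acvr2a (chr2:48703743-48793283, plus strand) and Acvr2b (chr9:119231103-119271213, plus strand) are type II receptors for activins that also bind several BMPs. Acvr2a stood at 8.48, 6.08 and 8.91 FPKM with bFGF/EGF, 6.37, 7.33 and 7.75 FPKM with bFGF/BMP4, and 5.36, 4.99 and 5.27 FPKM with BMP4. The BMP4 libraries were below all others, and the remaining groups overlapped. Acvr2a fell by 0.56 on the log2 scale with BMP4 against bFGF/EGF (1.47-fold; SE 0.16, limma adjusted p = 0.0128), a result that did not pass without bFGF/EGF replicate 1 (-0.49). Its log2 fold change was -0.11 (limma adjusted p = 0.587) with bFGF/BMP4 and -0.45 (limma adjusted p = 0.0767) between BMP4 and bFGF/BMP4, where it passed in the fit without bFGF/EGF replicate 2 (limma adjusted p = 0.0217). In GENCODE vM39, Acvr2a shares 3081 exonic bases with Orc4 on the opposite strand, which had 4.85, 4.83 and 4.47 FPKM in the 3 groups. The exons counted for the deposited values may differ from these, so that the shared bases may not all have been counted.

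Acvr2b went from 2.31, 2.54 and 1.89 FPKM with bFGF/EGF through 2.01, 1.36 and 1.06 FPKM with bFGF/BMP4 to 0.941, 0.267 and 0.679 FPKM with BMP4. The BMP4 libraries did not overlap with either other group, and bFGF/BMP4 replicate 1 overlapped with bFGF/EGF. With BMP4 against bFGF/EGF it fell by 1.80 (3.49-fold; SE 0.38, limma adjusted p = 0.00244). It was also the only receptor to pass between BMP4 and bFGF/BMP4, at -1.19 (2.29-fold lower; SE 0.38, limma adjusted p = 0.0497). That call was lost in 12 of 17 alternative settings, among them leaving out any single library other than BMP4 replicate 1. Without BMP4 replicate 2, the lowest library, the log2 fold change was -0.76 (limma adjusted p = 0.121), and without bFGF/BMP4 replicate 1 it was -0.96 (limma adjusted p = 0.168). The BMP4 libraries rested on 17 to 60 fragments each. 4930516B21Rik, a gene on the opposite strand, has 1471 exonic bases in common with Acvr2b in GENCODE vM39, which may not all have been counted. It ranged from 2.27 to 2.75 FPKM with bFGF/EGF, 1.88 to 2.55 FPKM with bFGF/BMP4 and 1.03 to 1.80 FPKM with BMP4. It moved with Acvr2b over the libraries, and its part in the values of Acvr2b was not tested.

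Tgfbr2 (chr9:115913361-116004800, minus strand), the type II receptor for TGF-β, was low and fell in both BMP4 groups by less than 2-fold. It stood at 1.53, 2.01 and 1.56 FPKM with bFGF/EGF, 1.17, 0.939 and 1.02 FPKM with bFGF/BMP4, and 0.985, 0.762 and 0.822 FPKM with BMP4. Replicate 2, the library of the starting culture with the least Tgfbr1, held the most Tgfbr2. The log2 fold change was -0.65 (SE 0.21, limma adjusted p = 0.0252) with bFGF/BMP4 and -0.91 (SE 0.21, limma adjusted p = 0.00392) with BMP4. The first of these did not pass without bFGF/EGF replicate 2 (limma adjusted p = 0.0823), bFGF/BMP4 replicate 2 (0.0803) or bFGF/BMP4 replicate 3 (0.0624). Tgfbr3 (betaglycan; chr5:107249402-107437623, minus strand), a co-receptor without kinase activity that presents TGF-β2 to the signalling receptors, was the scarcest member, with 17 to 51 fragments in a library. It stood at 0.359, 0.493 and 0.251 FPKM with bFGF/EGF, 0.181, 0.169 and 0.187 FPKM with bFGF/BMP4, and 0.376, 0.349 and 0.333 FPKM with BMP4. The bFGF/BMP4 libraries lay below all others, but neither the difference from bFGF/EGF (-0.71, limma adjusted p = 0.0767) nor that between BMP4 and bFGF/BMP4 (0.70, limma adjusted p = 0.142) passed. The former passed without bFGF/EGF replicate 3 (-0.90, limma adjusted p = 0.0342) and in limma-voom on rebuilt fragment numbers (-1.08, adjusted p = 0.0164).

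**Figure D2:**
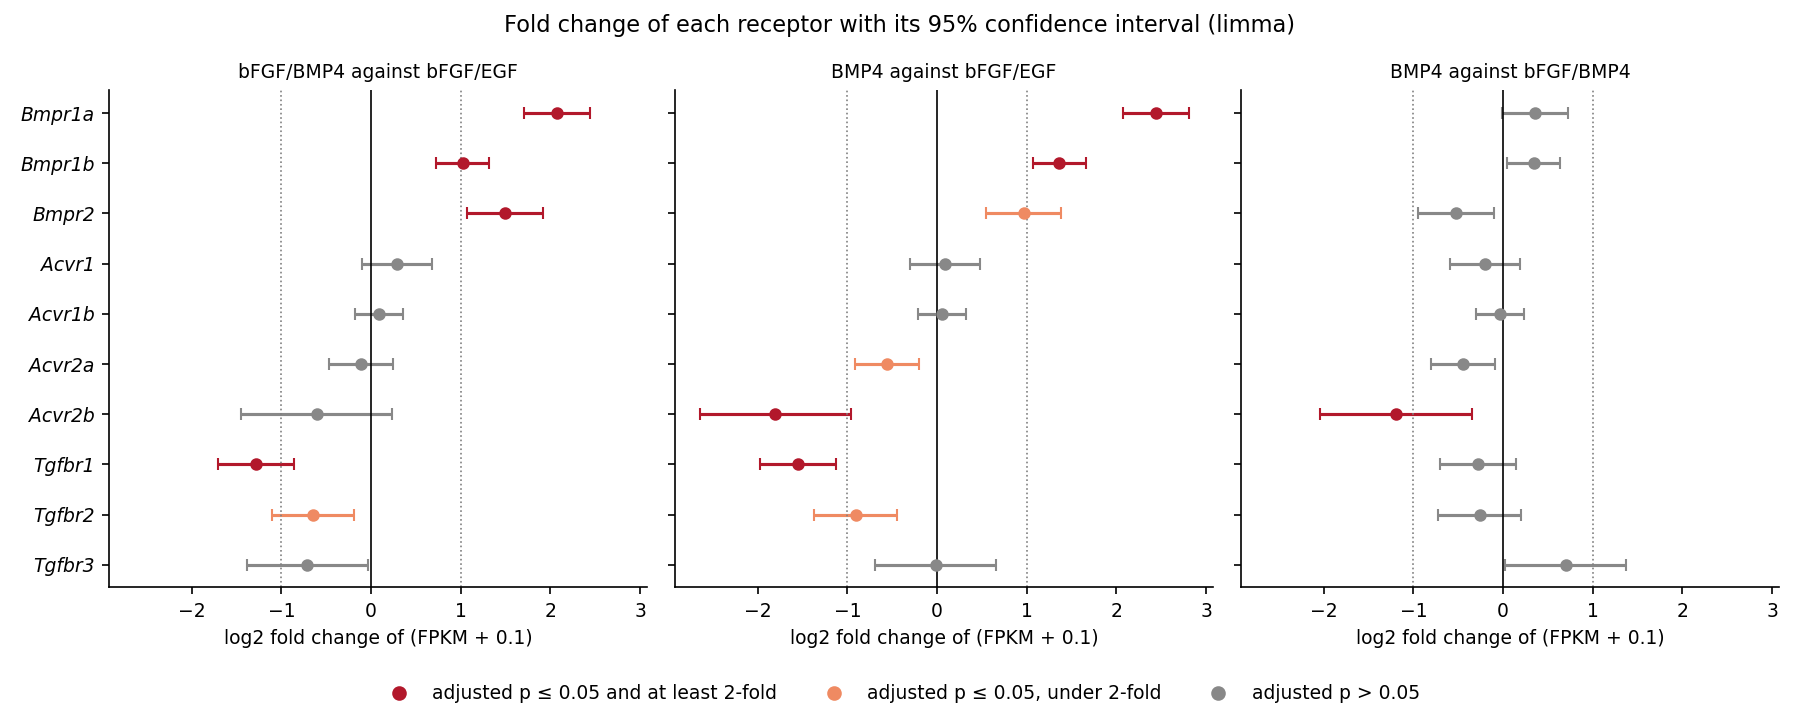
Log2 fold change of (FPKM + 0.1) (x axis) with its 95% confidence interval from limma for the 10 receptors (y axis) in the 3 comparisons, with dotted lines at 2-fold and colours for the test. Bmpr1a lies farthest to the right in both comparisons with bFGF/EGF, at 2.08 and 2.44, Tgfbr1 lies left of the 2-fold line in both, at -1.28 and -1.55, and only Acvr2b is coloured in the comparison of BMP4 with bFGF/BMP4.

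To compare receptors within a library, 4 ratios of FPKM values were formed, which do not depend on how the libraries were scaled. With 3 libraries against 3, the exact permutation test cannot go below p = 0.1, so that no ratio could pass, and the 12 comparisons were adjusted together. The sum of the BMP type I receptors (Bmpr1a, Bmpr1b and Acvr1) over that of the activin and TGF-β type I receptors (Acvr1b and Tgfbr1) was 2.28, 2.23 and 2.52 in the bFGF/EGF libraries. It was 9.72, 10.6 and 10.8 with bFGF/BMP4 and 13.0, 15.2 and 13.7 with BMP4. No group overlapped another, and the mean log2 ratio was higher by 2.15 with bFGF/BMP4, by 2.57 with BMP4 and by 0.42 between them (exact permutation p = 0.1 and adjusted p = 0.12 for each). Of the members of these sums, Acvr1 and Acvr1b passed no test on their own.

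Bmpr1b relative to Bmpr1a was 0.408, 0.483 and 0.324 with bFGF/EGF, 0.225, 0.176 and 0.181 with bFGF/BMP4, and 0.181, 0.173 and 0.220 with BMP4. Bmpr1b was thus the lesser of the pair in all 9 libraries, and both BMP4 groups, which overlapped each other, lay below the starting culture, by 1.05 and 1.07 on the log2 scale (exact permutation p = 0.1 and adjusted p = 0.12 for each). Tgfbr2 relative to Bmpr2 was 0.121, 0.204 and 0.119 with bFGF/EGF, and between 0.0240 and 0.0451 in the 6 libraries with BMP4. The mean log2 ratio differed from bFGF/EGF by -2.20 and -1.96 (exact permutation p = 0.1 and adjusted p = 0.12 for each).

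Summed type II over summed type I receptors was 0.399, 0.424 and 0.434 with bFGF/EGF, 0.285, 0.336 and 0.331 with bFGF/BMP4, and 0.205, 0.151 and 0.185 with BMP4. The groups did not overlap, and the mean log2 ratio was lower by 0.40 with bFGF/BMP4 and by 1.23 with BMP4 than with bFGF/EGF (exact permutation p = 0.1 and adjusted p = 0.12 for each). The summed type II receptors themselves were 23.7 ± 2.79, 43.5 ± 7.07 and 30.0 ± 4.22 FPKM (SD, n = 3), and the summed type I receptors 56.6 ± 7.46, 137 ± 10.8 and 166 ± 3.59 FPKM.

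**Figure D3:**
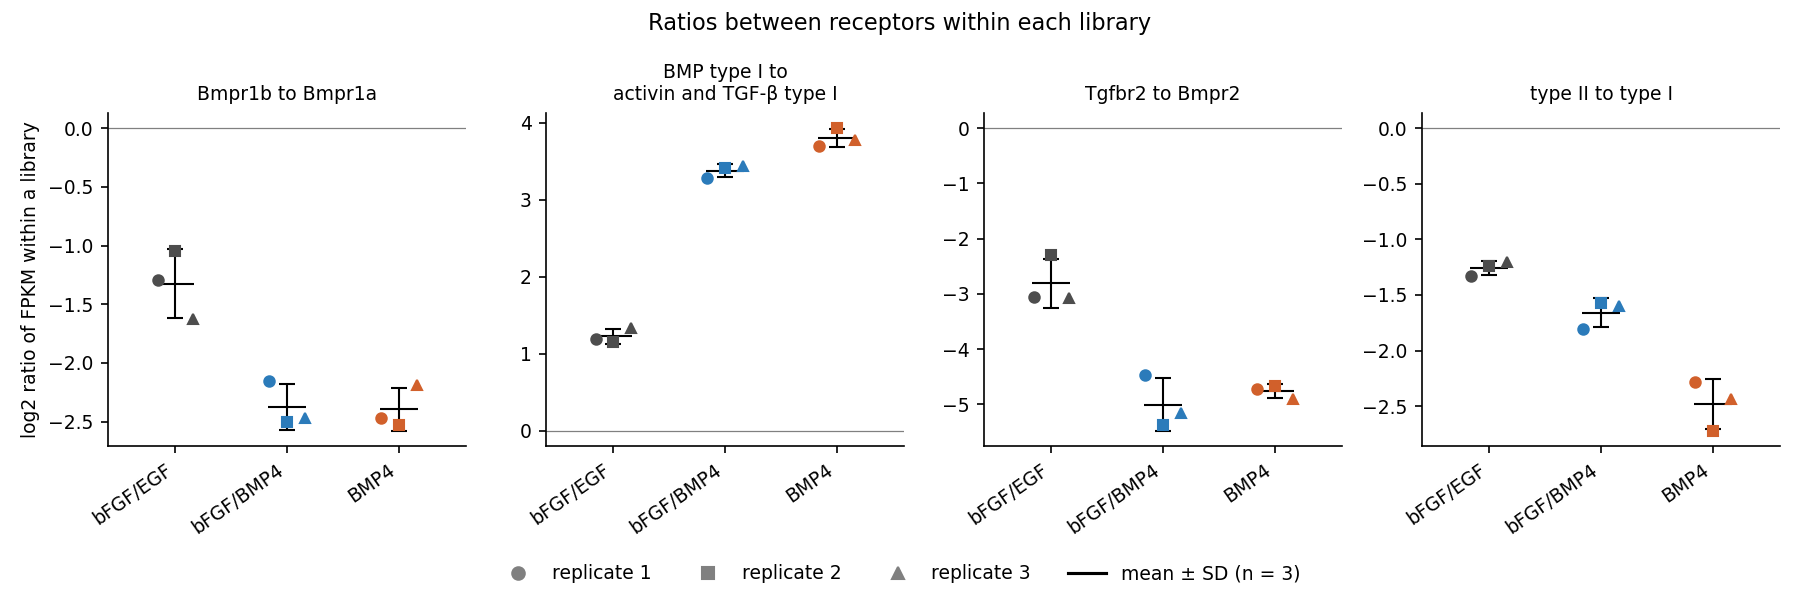
Log2 ratio of FPKM between receptors within each library (y axis, scaled per panel) by group (x axis), with 1 point per library and the mean ± SD (n = 3) as bars. The ratio of BMP type I to activin and TGF-β type I receptors is lowest with bFGF/EGF, the other 3 ratios are highest there, and the ratio of Bmpr1b to Bmpr1a overlaps between the BMP4 groups.

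The other genes of the pathway are given by list, with the numbers called at least 2-fold higher and lower in bFGF/BMP4 against bFGF/EGF, in BMP4 against bFGF/EGF and in BMP4 against bFGF/BMP4, in that order. Up to 2 genes with the largest change were named per list and comparison, and any further gene was chosen after its values were seen. A gene can stand in several lists, as Smad7 does. Among the genes named below, Acvr1c, Bmp6, Tgfb1, Fstl3 and Ltbp2, like Smad6 and Msx2, reached the minimum level only through groups where they were high. The direction of the changes given for them was thus fixed by that filter. Their values and p-values are a description, and they enter the counts and medians of their lists. The counts stand beside 30.6%, 36.6% and 13.5% of all genes called in the 3 comparisons, and the list medians beside medians over all genes of 0.06, 0.10 and 0.00. Of 7 other receptors and co-receptors tested, 4 were higher and 1 lower, 3 higher, and 1 lower, with median log2 fold changes of 1.12, 0.78 (0.97 with Acvr1c at its lower bound) and 0.19. Rgma, a BMP co-receptor of the repulsive guidance molecule family, rose by 2.23 with BMP4 from 10.9 to 49.3 FPKM (limma adjusted p = 9.64e-05). Bambi, a pseudoreceptor without a kinase domain that blocks type I receptors, rose by 1.43 with BMP4 (limma adjusted p = 0.00427). Acvr1c, the type I receptor ALK7, had at most 2 fragments in a bFGF/EGF library and 0.337 FPKM with bFGF/BMP4, at least 16.6-fold higher against a floor of 3 fragments per library. It was lower with BMP4 than with bFGF/BMP4 (log2 fold change -1.63, limma adjusted p = 0.0145). Endoglin (Eng), a TGF-β co-receptor, stood at 0.561 FPKM with bFGF/EGF and fell by 1.68 with bFGF/BMP4 (limma adjusted p = 0.00547).

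Only 4 of 17 BMP and GDF ligands passed the minimum level, of which 1 was higher and 1 lower, 2 higher and 1 lower, and 2 higher and 1 lower (medians -0.37, 1.19 and 0.81). Bmp7, which signals through Acvr1 and Bmpr1b among others, stood at 24.4 FPKM with bFGF/EGF, 4.21 FPKM with bFGF/BMP4 and 1.05 FPKM with BMP4, and fell in all 3 comparisons (limma adjusted p of 2.24e-05, 4.24e-07 and 0.000344). Gdf11, a ligand that signals through activin receptors, rose from 9.44 FPKM to 23.1 and 28.1 FPKM (limma adjusted p of 0.000148 and 2.44e-05). Bmp6 stood at 0.116 and 0.0777 FPKM in the groups with bFGF and rose to 6.60 FPKM with BMP4 alone (limma adjusted p = 1.8e-06 against bFGF/EGF). Of 5 activin and TGF-β ligands tested, 1 was higher and 1 lower, 3 higher and 1 lower, and 2 higher (medians 0.81, 1.24 and 0.40). Inhbb, which encodes the βB subunit of activin B, went from 10.6 FPKM to 0.457 FPKM with bFGF/BMP4, and to 2.62 FPKM with BMP4 (limma adjusted p of 4.81e-07 and 4.94e-05 against bFGF/EGF). Tgfb3 rose by 3.57 with BMP4, from 0.284 to 4.35 FPKM (limma adjusted p = 1.49e-05). Tgfb1 rose from 0.0853 FPKM to 0.820 and 0.719 FPKM in the BMP4 groups (limma adjusted p of 0.000876 and 0.00138).

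Extracellular antagonists bind ligands before these reach the receptors. Of 12 tested, 5 were higher and 2 lower, 8 higher and 2 lower, and 4 higher and 1 lower (medians 0.76, 2.15 and 0.62, or 0.71 and 2.23 in the first pair with undetected genes at their bounds). Noggin (Nog), which binds BMP4 and keeps it from its receptors, went from 0.434 FPKM ± 0.0876 (SD, n = 3) with bFGF/EGF to 246 FPKM ± 86.8 with bFGF/BMP4 and 213 FPKM ± 30.5 with BMP4 (limma adjusted p of 2.12e-08 and 1.37e-08). Fstl1, a secreted glycoprotein of the follistatin family, rose from 3.75 FPKM to 32.9 and 56.4 FPKM (limma adjusted p of 1.47e-07 and 2.46e-08). Follistatin (Fst), an activin antagonist, stood at 0.647 and 0.683 FPKM in the groups with bFGF and rose to 6.53 FPKM with BMP4 (3.11 on the log2 scale over bFGF/BMP4, limma adjusted p = 0.000238). Fstl3 rose by 2.20 in the same comparison (limma adjusted p = 0.00164).

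Of the 6 SMAD transducers, Smad9 was the only one called higher, from 0.464 FPKM with bFGF/EGF to 13.0 FPKM with bFGF/BMP4 and 8.89 FPKM with BMP4 (limma adjusted p of 4.44e-08 and 5.61e-08), and Smad3, which acts below Tgfbr1 and Acvr1b, was the only one called lower, with BMP4 (log2 fold change -1.16, limma adjusted p = 0.000184). The list medians were -0.24, -0.24 and -0.01. Among 18 inhibitory SMADs and regulators of the receptors, 6 were higher and 1 lower, 5 higher and 1 lower, and 1 higher and 1 lower (medians 0.38, 0.27 and 0.08), shares of 38.9%, 33.3% and 11.1% that are near those of all genes. Smad6, which blocks signalling from BMP type I receptors, had no fragment in any bFGF/EGF library and 25.7 and 37.4 FPKM in the BMP4 groups, at least 431-fold and at least 627-fold higher against the floor of 3 fragments. Smad7, which brings ubiquitin ligases to type I receptors, rose from 0.658 FPKM to 18.2 and 25.4 FPKM (limma adjusted p of 1.26e-06 and 4.56e-07). The gene called lower against bFGF/EGF was Fkbp1a, whose product FKBP12 binds the type I receptors and holds them inactive, with 132 FPKM in the starting culture and 43.3 and 46.3 FPKM in the BMP4 groups (limma adjusted p of 1.65e-05 and 1.62e-05). Between BMP4 and bFGF/BMP4 the 2 genes called were Ldlrad4, which was lower (-1.20, limma adjusted p = 0.0312), and the ubiquitin ligase Nedd4l, which was higher (1.06, limma adjusted p = 0.00184). For Ldlrad4 these groups overlapped, with up to 2.54 FPKM in a BMP4 library and down to 2.51 FPKM in a bFGF/BMP4 library. Of 7 kinases and adaptors that carry signals without SMADs, only Tab2 was called, higher by 1.47 with BMP4 (limma adjusted p = 6.06e-06; medians of the list 0.13, -0.11 and -0.26).

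All 13 BMP/SMAD target genes tested, of 14 listed, were called higher in both BMP4 groups against bFGF/EGF. In BMP4 against bFGF/BMP4, 3 were called higher (medians 2.78, 3.65 and 0.67). Smad6 and Msx2 had no fragment with bFGF/EGF and reached the minimum level only through the BMP4 groups, so that their direction was fixed by that filter. The list was also written with earlier results of these data known, and the count of 13 is given as a description. Id4, a helix-loop-helix inhibitor, was at 0.936 FPKM in the starting culture, 53.2 FPKM with bFGF/BMP4 and 132 FPKM with BMP4, and the step between the BMP4 groups passed (1.31, limma adjusted p = 0.000223). Id3 rose by 1.43 in the same comparison (limma adjusted p = 0.00617), and Dlx2 rose from 7.53 to 18.8 FPKM (limma adjusted p = 0.000949). Of 11 TGF-β/activin target genes, 6 were higher and 1 lower, 6 higher, and 4 higher and 1 lower (medians 1.38, 1.61 and 0.78). The members that moved include Smad7 and Skil, feedback inhibitors that also stand in the regulator list. Ccn2, a matricellular protein, was at 4.68 FPKM with bFGF/EGF and 94.9 FPKM with BMP4 (4.32 on the log2 scale, limma adjusted p = 4.53e-05). Ltbp2, which is part of the extracellular matrix, had no fragment with bFGF/EGF and was at least 67.2-fold higher with BMP4. It reached the minimum level only through the BMP4 group, so that this direction was fixed by the filter.

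**Figure D4:**
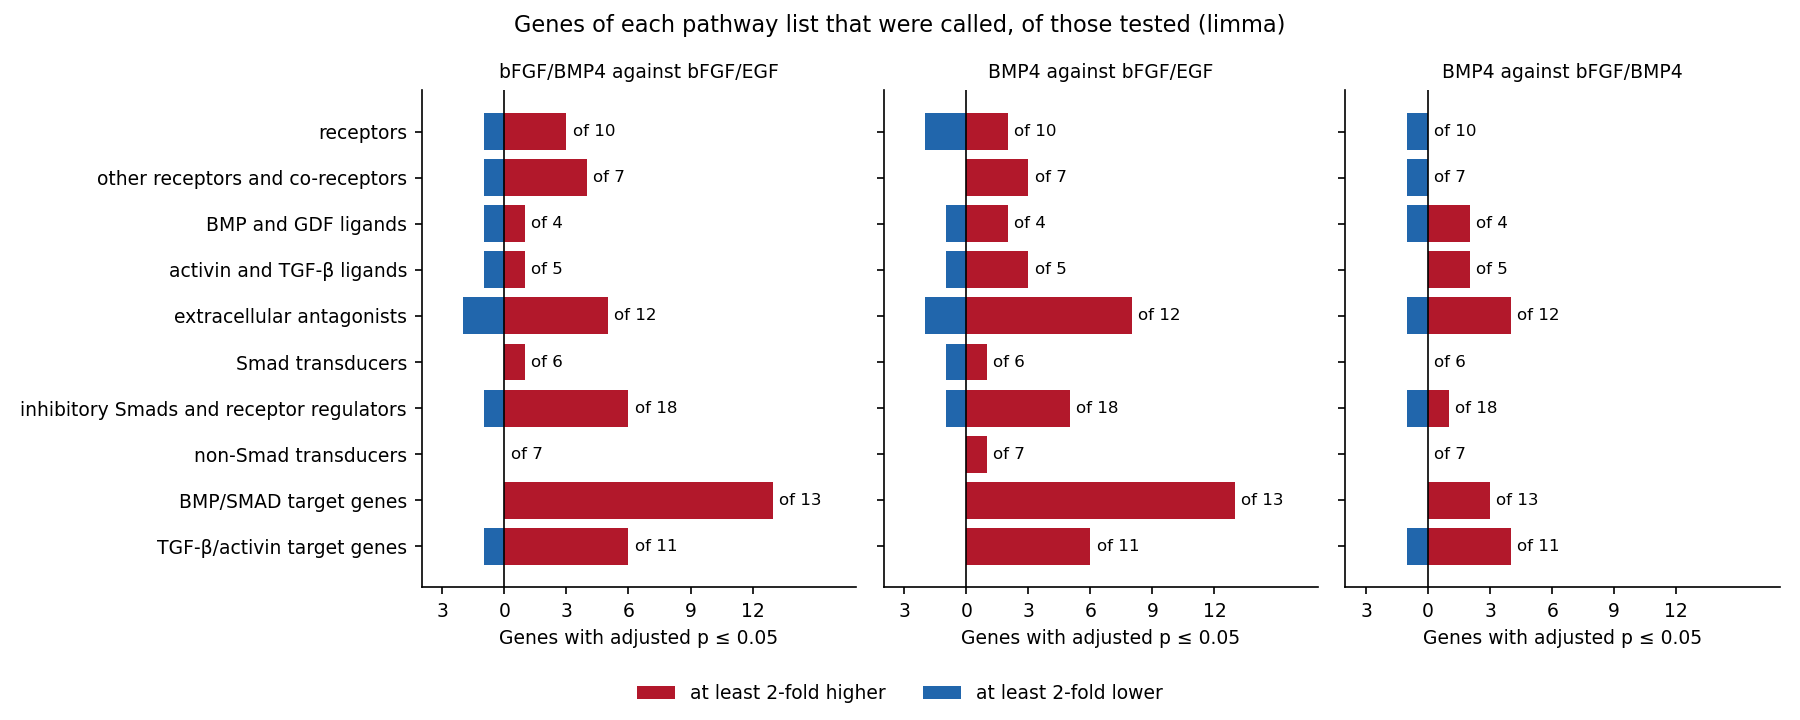
Number of genes called at least 2-fold higher (right of 0) or lower (left of 0) with limma adjusted p of at most 0.05 (x axis) in each pathway list (y axis) for the 3 comparisons, with the number tested written beside each bar. All 13 BMP/SMAD target genes tested are higher in both comparisons with bFGF/EGF, beside 3 and 2 of the 10 receptors. Of these target genes, Smad6 and Msx2 reached the minimum level for testing only through the BMP4 groups. In the comparison of BMP4 with bFGF/BMP4, 3 of the 13 target genes are higher, beside none of the receptors.

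For the 3 receptors with the widest range of group means, the genes with the most similar pattern over the 9 libraries were looked up among 12946 other genes with a mean of at least 1 FPKM. The 9 libraries form 3 groups, so that a high Pearson correlation needs little more than like group means, and it is given as a description. Bmpr1a was most like Igip (r = 0.9969), Pals1 (r = 0.9967) and Atp2c1 (r = 0.9956). Genes like Tgfbr1 included Smc4 (r = 0.9942), a condensin subunit, and Cpsf6 (r = 0.992), which acts in the processing of mRNA ends. Smc4 stood at 20.6, 6.96 and 5.51 FPKM in the 3 groups, beside 9.01, 3.58 and 2.93 FPKM for Tgfbr1. Acvr2b was most like its opposite-strand neighbour 4930516B21Rik (r = 0.9925), then Rptor (r = 0.9804), a subunit of mTOR complex 1, and Baz2a (r = 0.9777).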

How the data were processed

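RNA was sequenced from 9 libraries. The authors deposited FPKM values per gene for all of them in 1 table, made from trimmed reads. Per the submitters' processing notes the tools were fastp 0.19.7, HISAT2 2.0.5 and featureCounts 1.5.0-p3 with mm39, and the annotation release, the use of strand and the program that gave FPKM are not given in the sources used here. Receptors were matched by Ensembl identifier to GENCODE vM39 on GRCm39. Exonic bases shared with neighbouring genes were also taken from GENCODE vM39, and the exons counted for the deposited values may differ. Genes with a mean of at least 0.1 FPKM were tested with limma 3.58.1 (R 4.3.3, trend) on log2(FPKM + 0.1) in 1 fit of all 9 libraries, two-sided, with Benjamini-Hochberg adjustment over 20207 genes. A call needed an adjusted p of at most 0.05 and a change of at least 2-fold, the threshold of the study. Ratios were compared by a two-sided exact permutation test over libraries (Python 3.11.15, numpy 2.4.6, pandas 2.3.3), and figures were drawn with matplotlib 3.10.9.

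Fragment numbers were rebuilt from the FPKM values, in which all 30860 genes above 0 gave whole numbers within 0.05. A gene above 0 in a single library gives a whole number by construction. The smallest of a long range of multipliers that fitted was taken, so genes above 0 in few libraries can also fit by accident. A divisor shared by all numbers of a gene would not be seen. The result thus does not check the numbers of such genes. Only the limma fit was tested on simulated data. Libraries of a group were never identical. The alternatives were another pseudocount, other filters, other scalings, limma-voom on the rebuilt fragments, a replicate block, a fit of 2 groups only, no fold minimum, and leaving out each library. All 10 receptors were named, and of each pathway list the 2 called genes with the largest change per comparison. For 3 receptors the genes with the most similar pattern were named, of which 1 is not reported here. The members and lists were chosen with earlier results of these data known. Fragment numbers give counting error only, from 0.883% of the level for Bmpr1a to 23.6% for Tgfbr3.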

Additional observations from a re-analysis of the deposited data

How the results depend on the processing

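Bmpr1a and Tgfbr1 kept their calls against bFGF/EGF in all 17 alternatives of each comparison, as did Bmpr2 with bFGF/BMP4 and Bmpr1b and Acvr2b with BMP4. Acvr2b and Tgfbr3 had as few as 17 fragments in a library. For Acvr2b with BMP4 the coefficient of variation, 54.0%, was above the counting error of 15.7%. The causes of the changes below were not tested, except where an alternative has fewer genes or samples or another threshold. The number of receptors called in BMP4 against bFGF/BMP4 was 1, and it was 0 with a pseudocount of 1, with no filter, on the TPM scale and in a fit of only the 2 groups. Leaving out single libraries gave 0 to 1 there, 3 to 4 in bFGF/BMP4 against bFGF/EGF and 4 to 5 in BMP4 against bFGF/EGF. The call in BMP4 against bFGF/BMP4 was lost without bFGF/EGF replicates 1, 2 or 3 (adjusted p of 0.078, 0.073 and 0.0725 for Acvr2b), without bFGF/BMP4 replicates 1, 2 or 3 (0.168, 0.118 and 0.0611) and without BMP4 replicates 2 or 3 (0.121 and 0.0892). With no fold minimum 7 receptors were called in BMP4 against bFGF/EGF in place of 4.

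A pseudocount of 1 lowered the genes called from 6174 to 3544, from 7400 to 4364 and from 2738 to 1449 in the 3 comparisons, no fold minimum raised them to 9819, 11096 and 4271, and a minimum mean of 1 FPKM gave 1800 in the last. The call of Bmpr1b with bFGF/BMP4 dropped below 2-fold at a pseudocount of 1 (0.95), median-ratio scaling (0.99), limma-voom (0.91), and without bFGF/EGF replicate 2 (0.96), bFGF/EGF replicate 3 (0.97) or bFGF/BMP4 replicate 1 (0.99). Bmpr2 with BMP4 passed 2-fold without bFGF/EGF replicate 1 (1.02), bFGF/EGF replicate 3 (1.04) or BMP4 replicate 2 (1.10), Tgfbr2 with BMP4 on the TPM scale (-1.05), in limma-voom (-1.08) or without BMP4 replicate 1 (-1.004), and Tgfbr3 with bFGF/BMP4 in limma-voom (-1.08, adjusted p = 0.0164).

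By the adjusted p alone, Acvr2a in BMP4 against bFGF/BMP4 passed in a fit of only the 2 groups (0.0318), and other gains and losses with single libraries stand beside each receptor. Changes of sign occurred only in values close to 0 that passed no test. Acvr1b with bFGF/BMP4 was -0.0273 in limma-voom, and with BMP4 it was -0.0292 on the TPM scale, -0.0392 in limma-voom and from -0.0227 to 0.129 when single libraries were left out. In BMP4 against bFGF/BMP4 Acvr1b lay from -0.0805 to 0.042 when single libraries were left out. Acvr1 with BMP4 was -0.0085 in limma-voom. Tgfbr3 with BMP4 lay from -0.205 (without bFGF/EGF replicate 3) to 0.173 (without bFGF/EGF replicate 2). The log2 ratio of Bmpr1b to Bmpr1a between BMP4 and bFGF/BMP4, -0.02, ranged from -0.123 to 0.093 when single libraries were left out.

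Deviations from the group means had correlations from -0.084 to 0.125 between libraries with the same replicate number. Libraries with different numbers had correlations from -0.154 to 0.081. In BMP4 against bFGF/EGF the highest values, 0.125 and 0.088, were of libraries with the same number. Deviations from a mean of 3 libraries depend on each other, so these values cannot decide whether libraries were paired. The numbers were taken as names in the main fit. With a replicate block, 4, 4 and 1 receptors and 6127, 7383 and 2612 genes were called, and Acvr2b in BMP4 against bFGF/BMP4 kept its call (adjusted p = 0.0464).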
